A study of Mus musculus with 24 samples.

Results

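The Hoxb cluster of the mouse is described here by its 10 protein-coding genes, Hoxb1, Hoxb2, Hoxb3, Hoxb4, Hoxb5, Hoxb6, Hoxb7, Hoxb8, Hoxb9 and Hoxb13, out of 21631 protein-coding genes annotated in the RefSeq table for the mouse genome build GRCm38.p6, the patch release of the mm10 build used for the deposited lists. The members were chosen by name and not by a measured value, though with earlier results of these data known. Each gene was given a window that runs from 2 kb before its annotated span to 2 kb after it. The windows overlap from Hoxb9 to Hoxb2, and counted once they hold 99495 bp in 3 blocks, within a locus of 178 kb on chromosome 11 (96192316 to 96370254, mm10). Hoxb13 stands alone, with 74719 bp between its span and that of Hoxb9.

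Chromatin immunoprecipitation sequencing (ChIP-seq) was done on mouse leukaemia cells that carry a fusion of NUP98, a nuclear pore protein, with HOXA9, HOXD13, JARID1A or NSD1, and the labels give 1 cell line per fusion. For NUP98-HOXA9 the titles of the MLL1 libraries carry a longer cell name than those of Menin and H3K4me3. The cells grew in culture with the cytokines IL-3, IL-6 and SCF, and received VTP50469, an inhibitor of the contact between the histone methyltransferase MLL1 and its partner menin, or the solvent DMSO. MLL1 was profiled in all 4 lines, Menin in the NUP98-HOXA9 line and the NUP98-HOXD13 line, and H3K4me3, histone H3 with a trimethyl group on lysine 4, in the NUP98-HOXA9 line, which gives 14 lists of called regions in 7 pairs of VTP50469 and DMSO. The remaining 10 of the 24 libraries are input chromatin.

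Per the labels, VTP50469 was given at 2 µM for 96 h, with exceptions. In NUP98-NSD1 it was given at 200 nM for 96 h, although the treatment protocol names 2 µM. The MLL1 pair of NUP98-HOXA9 was collected at 72 h. The title of its treated library gives no time, while its timepoint label does. Lines, doses and times therefore differ together between some pairs.

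Each condition has 1 library, so no replicate error can be given, no difference was tested, and differences between the lists of a pair cannot be told apart from differences between libraries. The lists hold 403 to 24950 regions, which cover 0.299 to 16.2 Mb, and they carry no read depth. The value followed here is the covered length, the number of bases of a window that lie in called regions. It says how much ground was called, not how strongly it was bound, and a weaker signal and a shallower library can both shorten it. In the H3K4me3 lists of NUP98-HOXA9, 5 of 8 progenitor and myeloid marker genes had a region after VTP50469 and 4 of 8 in DMSO, and none of 6 genes of tissues other than blood had one in either list. One gene each of 3 B cell, 3 T cell and 4 erythroid and megakaryocyte genes had a region in both lists. Of the T cell genes, Lck had a region in 12 of the 14 lists and Cd3e and Cd3g in none. Over the 14 lists the groups were less distinct. Klf1, an erythroid gene, had a region in 12 and Cd79a, a B cell gene, in 11. Col1a1, of tissues other than blood, had one in 8 lists and the others of its group in none. Among the progenitor and myeloid genes, Ptprc had one in 13 lists, Kit, Elane and Mpo in 8 each, and Cd34 in 2.

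Hox genes encode homeodomain transcription factors that stand in clusters, and their order along the chromosome follows the order of their domains along the body axis. In blood, several genes of the Hoxa and Hoxb clusters are active in stem and progenitor cells and are switched off as cells mature, and several of them can drive leukaemia when they stay on. MLL1 is held at such genes with the help of menin and methylates lysine 4 of histone H3 at their starts. Of the members, Hoxb4 is known for expanding blood stem cells when overexpressed, Hoxb5 for marking long-term stem cells in the mouse, and Hoxb8 for its activation in a mouse myelomonocytic leukaemia and for holding mouse progenitors in self-renewal in culture. Hoxb3 and Hoxb6 drive a myeloid expansion when overexpressed in mouse marrow. Hoxb1 and Hoxb2 pattern the hindbrain, Hoxb9 acts in the skeleton of the trunk, and Hoxb13 acts in the prostate.

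Promoter sequences of 3 members, 250 bases before to 50 after the start, are printed. Only these members were matched in the RefSeq promoter table, so they were not picked to represent the cluster. MLL1 covered the Hoxb8 sequence in every DMSO list, that of Hoxb4 in some and that of Hoxb1 in none. The sequences lie on the plus strand of GRCm38.p6 at chr11:96281655-96281954, chr11:96318017-96318316 and chr11:96365508-96365807. Capitals mark CG dinucleotides, which the CXXC domain of MLL1 binds when they are unmethylated.
Hoxb8: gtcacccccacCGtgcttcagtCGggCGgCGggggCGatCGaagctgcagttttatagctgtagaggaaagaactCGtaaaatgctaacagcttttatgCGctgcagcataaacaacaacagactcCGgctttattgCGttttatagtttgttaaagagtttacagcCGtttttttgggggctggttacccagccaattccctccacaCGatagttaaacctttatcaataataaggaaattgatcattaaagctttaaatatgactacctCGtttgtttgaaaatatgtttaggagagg
Hoxb4: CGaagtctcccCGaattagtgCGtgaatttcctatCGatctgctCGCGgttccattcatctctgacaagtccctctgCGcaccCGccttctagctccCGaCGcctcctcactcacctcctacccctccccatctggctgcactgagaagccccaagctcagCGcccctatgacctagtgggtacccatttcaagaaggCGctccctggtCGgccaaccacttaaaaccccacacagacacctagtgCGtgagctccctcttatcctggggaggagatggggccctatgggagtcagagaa
Hoxb1: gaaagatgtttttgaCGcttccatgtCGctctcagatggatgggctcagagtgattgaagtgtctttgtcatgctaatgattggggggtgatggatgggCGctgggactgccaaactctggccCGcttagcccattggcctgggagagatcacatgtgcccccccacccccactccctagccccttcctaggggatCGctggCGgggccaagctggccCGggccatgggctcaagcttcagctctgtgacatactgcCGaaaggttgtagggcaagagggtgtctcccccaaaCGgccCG

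The Hoxb8 sequence holds 13 CG, the Hoxb4 sequence 14 and the Hoxb1 sequence 10, against a median of 7 over all 32851 promoters of the table. At least 13 CG were found in 37.9% of the promoters, at least 14 in 36.3% and at least 10 in 43.5%. TGACAG, the core bound by MEIS and PKNOX proteins, and TGATTNAT, a core bound by PBX with a HOX protein, were searched on both strands. Neither exact string was found in the 3 sequences, while 19.2% of all promoters held TGACAG and 3.22% held TGATTNAT. Other forms of these sites were not searched, so this does not show that the promoters lack such sites. The Hoxb1 sequence, for example, holds tgatggat, which differs from TGATTNAT in a single base.

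The cluster also holds 2 microRNA genes, printed because MLL1 reached the hairpin of one of them. Capitals mark the seed, bases 2 to 8 of the mature RNA, and the sequences are from RefSeq on GRCm38.p6, at chr11:96317186-96317208 (plus strand) and chr11:96265187-96265208 (plus strand).
mmu-miR-10a-5p: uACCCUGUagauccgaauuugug
mmu-miR-196a-5p: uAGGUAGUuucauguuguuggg

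The seeds of miR-10a-5p and miR-196a-5p differ. The hairpin of Mir10a ends 993 bp before Hoxb4, and that of Mir196a-1 ends 6065 bp before Hoxb9. miR-196a is known to direct the cleavage of Hoxb8 mRNA in the mouse.

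In DMSO, MLL1 lay in a run of regions from Hoxb8 to Hoxb4 and the near part of Hoxb3. In the HOX fusion lines the run began in the flank of Hoxb9, and in NUP98-JARID1A and NUP98-NSD1 further regions lay at Hoxb2. Hoxb1 and Hoxb13 were bare. The cluster held 33031 bp of MLL1 in NUP98-HOXA9, 20565 bp in NUP98-HOXD13, 17431 bp in NUP98-JARID1A and 36842 bp in NUP98-NSD1, or 33.2%, 20.7%, 17.5% and 37.0% of its windows. Over all protein-coding genes, between 0.379% and 1.15% of the windows was covered in these lists. The widest region of the cluster ranked 5 of 22534 regions by width in NUP98-HOXA9, 9 of 20154 in NUP98-HOXD13, 7 of 7113 in NUP98-NSD1 and 362 of 15765 in NUP98-JARID1A. In NUP98-HOXA9 a single region of 13521 bp reached from Hoxb6 over Hoxb5 into Hoxb3 (96300577 to 96314097). In NUP98-NSD1 a region of 7622 bp (96300280 to 96307901) began at nearly the same place in Hoxb6 and ended just inside Hoxb3.

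**Figure D1:**
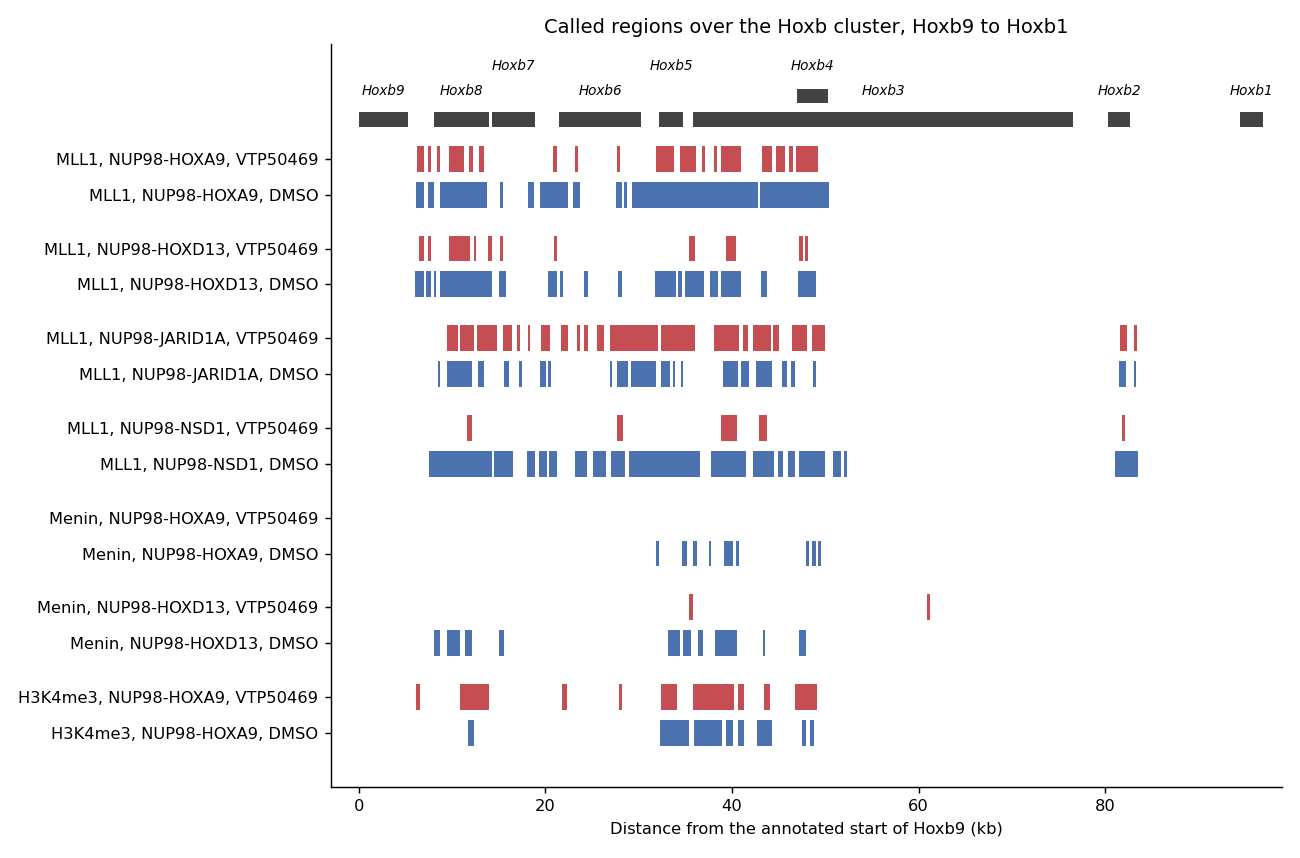
Called regions over the Hoxb cluster in the 14 lists, as distance in kb from the annotated start of Hoxb9, with VTP50469 (red) above DMSO (blue) in each pair and gene spans as grey bars on top. Regions stop within Hoxb3 and, in the MLL1 lists of NUP98-JARID1A and NUP98-NSD1, appear again at Hoxb2. Hoxb13, left of the plotted range, and Hoxb1 have no region in any list.

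After VTP50469 the MLL1 ground of the cluster was shorter in 3 lines and longer in 1. NUP98-NSD1 held 3908 bp after VTP50469 against the 36842 bp in DMSO (10.6%), NUP98-HOXD13 held 6799 bp (33.1% of DMSO) and NUP98-HOXA9 16312 bp (49.4%). NUP98-JARID1A held 27890 bp, which is 160% of DMSO, and 19969 bp or 115% when its longer treated list was limited to as many regions as the DMSO list, those with the highest −log10 q. All protein-coding genes stood at 9.15% in NUP98-NSD1, 57.1% in NUP98-HOXD13, 75.5% in NUP98-HOXA9 and 132% in NUP98-JARID1A. The cluster was thus further below DMSO than all genes in NUP98-HOXD13 and NUP98-HOXA9, and near them in NUP98-NSD1. In NUP98-JARID1A the cluster was further above DMSO than all genes with the full lists. All genes were not measured with lists of equal length, so the 115% of the cluster has no such comparison.

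In the 3 lines with a shorter length the remaining regions lay where the DMSO regions had been. The bases called after VTP50469 and not in DMSO came to 256 bp in NUP98-HOXA9, 27 bp in NUP98-HOXD13 and 0 bp in NUP98-NSD1. Such bases made up 1.57%, 0.397% and 0% of the length after VTP50469 on the cluster, and 15.7%, 6.85% and 22.2% over all genes. The other Hox clusters with MLL1 were alike in this. The share was 0% for the Hoxa cluster in each of these lines. For the Hoxc cluster it was 1.76% in NUP98-HOXA9 and 0.0568% in NUP98-HOXD13. In NUP98-JARID1A, 87.8% of the DMSO bases were called again and 12592 bp were added, 45.1% of the length after VTP50469, against 38.1% over all genes.

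**Figure D2:**
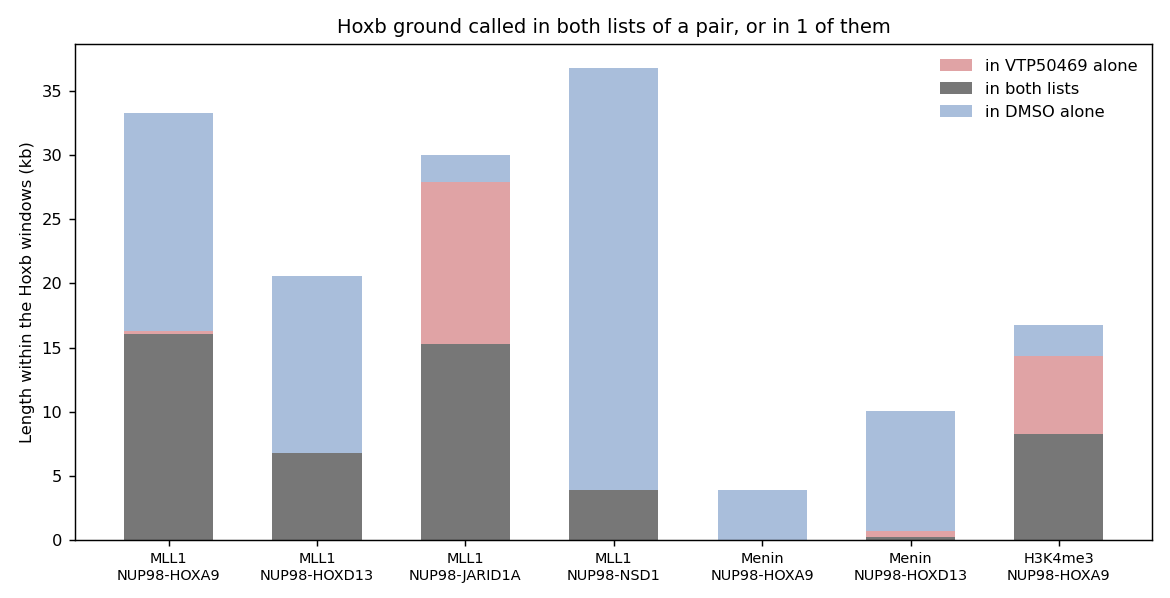
Length within the Hoxb windows in kb, split into bases called in both lists of a pair (grey), after VTP50469 alone (pink) and in DMSO alone (light blue), 1 library per condition. Pink is almost absent from the MLL1 bars except in NUP98-JARID1A, where it stands for 12592 bp, and the Menin bars are almost wholly light blue.

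Genes at the Hoxb9 end of the cluster differed in how much MLL1 they kept. Hoxb8 held 3935 bp after VTP50469 against 6774 bp in DMSO in NUP98-HOXA9, and 4126 against 8040 bp in NUP98-HOXD13. In NUP98-NSD1 it held 501 against 8197 bp, and in NUP98-JARID1A 5335 against 4105 bp (130%). With lists of equal length the direction in NUP98-JARID1A turned, to 3656 against 4105 bp (89.1%). With its flanks Hoxb8 thus kept over 50% of its DMSO length in both lines with a HOX fusion and 6.11% in NUP98-NSD1. Over the gene span alone it kept 47.9% in NUP98-HOXD13 (2657 against 5542 bp) and 57.9% in NUP98-HOXA9. Its promoter, printed above, was covered over all 300 bases in the 4 DMSO lists. After VTP50469 the covered part was again 300 bases in both HOX fusion lines, with 256 bases in NUP98-JARID1A and 0 in NUP98-NSD1.

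The region over the Hoxb8 promoter narrowed around an almost unmoved summit in both HOX fusion lines. In NUP98-HOXA9 it was 1655 bp wide after VTP50469 and 5057 bp in DMSO, with the summit at -145 bases from the start after VTP50469 and -136 in DMSO. In NUP98-HOXD13 it was 2184 bp wide after VTP50469 and 5590 bp in DMSO, with the summit at -191 bases after VTP50469 and -184 in DMSO. Separate short regions also stayed within the DMSO region after VTP50469, such as 433 and 571 bp in NUP98-HOXA9 and 290 bp in NUP98-HOXD13. The fold enrichment that the authors' peak caller gave, which is each region's own value within its list, placed the NUP98-HOXA9 region of DMSO (fold 74.6) 8 of 22534. The region left over the promoter after VTP50469 (fold 43.8) ranked 983 of 21739.

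Hoxb7 kept less than its neighbour Hoxb8 in the 3 lines with a shorter length. It held 584 bp after VTP50469 against 3906 bp in DMSO in NUP98-HOXA9 (15.0%), 1067 against 3388 bp in NUP98-HOXD13 (31.5%) and 0 against 6144 bp in NUP98-NSD1. In NUP98-JARID1A it held 4660 against 2454 bp (190%), but 2242 against 2454 bp (91.4%) with lists of equal length. With regions of −log10 q of at least 5 alone, it held 4362 against 882 bp (495%) there. The 584 bp that Hoxb7 kept in NUP98-HOXA9 lay in its flank, within the window of Hoxb8, and its gene span held 0 bp after VTP50469 and 1025 bp in DMSO. Hoxb9 had MLL1 in the HOX fusion lines alone, 685 bp after VTP50469 against 790 bp in DMSO in NUP98-HOXA9 and 571 against 912 bp in NUP98-HOXD13, all of it outside the gene span.

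In the middle of the cluster the MLL1 length was also shorter after VTP50469 in the same 3 lines. Hoxb6 held 1505 bp after VTP50469 against 7608 bp in DMSO in NUP98-HOXA9 (19.8%), 339 against 2612 bp in NUP98-HOXD13 (13.0%) and 558 against 9056 bp in NUP98-NSD1 (6.16%). In NUP98-JARID1A it held 8325 against 4915 bp (169%, or 105% with lists of equal length). There a single region of 5144 bp (96298220 to 96303363) ran over ground that DMSO held as 3 regions, the widest of them 2725 bp. Hoxb6 was therefore short after VTP50469 in the 3 other lines and among the longest in NUP98-JARID1A, where it ranked 33 of 12429 genes with MLL1.

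Hoxb5 held 3661 bp after VTP50469 in NUP98-HOXA9, against 6610 bp in DMSO, which was its whole window. In NUP98-HOXD13 it held 584 against 4522 bp (12.9%) and in NUP98-NSD1 0 against 6390 bp. In NUP98-JARID1A it held 5534 against 3228 bp (171%), and all of the DMSO bases were called again. The 2 HOX fusion lines lay far apart here, since Hoxb5 kept 55.4% of its length in NUP98-HOXA9.

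Hoxb4 lies wholly within the window of Hoxb3, so its bases also count for Hoxb3. It held 3548 bp after VTP50469 against 5441 bp in DMSO in NUP98-HOXA9 (65.2%), 689 against 1977 bp in NUP98-HOXD13 (34.9%) and 0 against 5200 bp in NUP98-NSD1. In NUP98-JARID1A it held 3021 against 1272 bp (238%), the highest ratio of the 7 covered members in that line, and with a −log10 q of at least 5 it held 3021 against 319 bp (947%). Of its DMSO bases there 50.9% were called again, and 78.6% of the length after VTP50469 was new ground. Its promoter was covered over 300 bases after VTP50469 and 105 in DMSO in NUP98-JARID1A, over 156 against 300 in NUP98-HOXA9, over 0 against 43 in NUP98-NSD1, and not at all in NUP98-HOXD13. The hairpin of Mir10a, just before Hoxb4, lay in MLL1 regions in DMSO over 110 of 110 bases in NUP98-HOXA9 and over 79 in NUP98-JARID1A, and in no list after VTP50469. That of Mir196a-1 was bare in all 14 lists.

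Hoxb3 has the longest window, 44830 bp, and held more MLL1 than the other members in each MLL1 list except that of NUP98-HOXD13 after VTP50469, where Hoxb8 held 4126 bp. It held 9348 bp after VTP50469 against 16337 bp in DMSO in NUP98-HOXA9, 2334 against 8377 bp in NUP98-HOXD13, 2499 against 14019 bp in NUP98-NSD1 and 10852 against 5753 bp in NUP98-JARID1A. In NUP98-HOXA9 after VTP50469 no other protein-coding gene had a longer MLL1 length, and in DMSO Hoxb3 ranked 15 of 11469 genes. In NUP98-NSD1 it ranked 7 of 986 genes after VTP50469 and 4 of 5649 in DMSO, so its place among covered genes changed little while its length was 17.8% of DMSO. Ranks by length favour long windows.

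Hoxb2 carried MLL1 in NUP98-JARID1A, with 1015 bp after VTP50469 and 1014 bp in DMSO, and in NUP98-NSD1, with 350 bp after VTP50469 and 2420 bp in DMSO. With lists of equal length its treated length in NUP98-JARID1A was 0 bp, with a −log10 q of at least 5 it was 690 against 1014 bp (68.0%), and over the gene span 690 against 779 bp (88.6%). In NUP98-NSD1 the treated length was 0 bp with a −log10 q of at least 5. It was bare in both HOX fusion lines. Hoxb1 and Hoxb13 were bare in all 14 lists. Since Hoxb2 or Hoxb9 was bare as well in each pair, every count below is over at most 7 covered members.

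**Figure D3:**
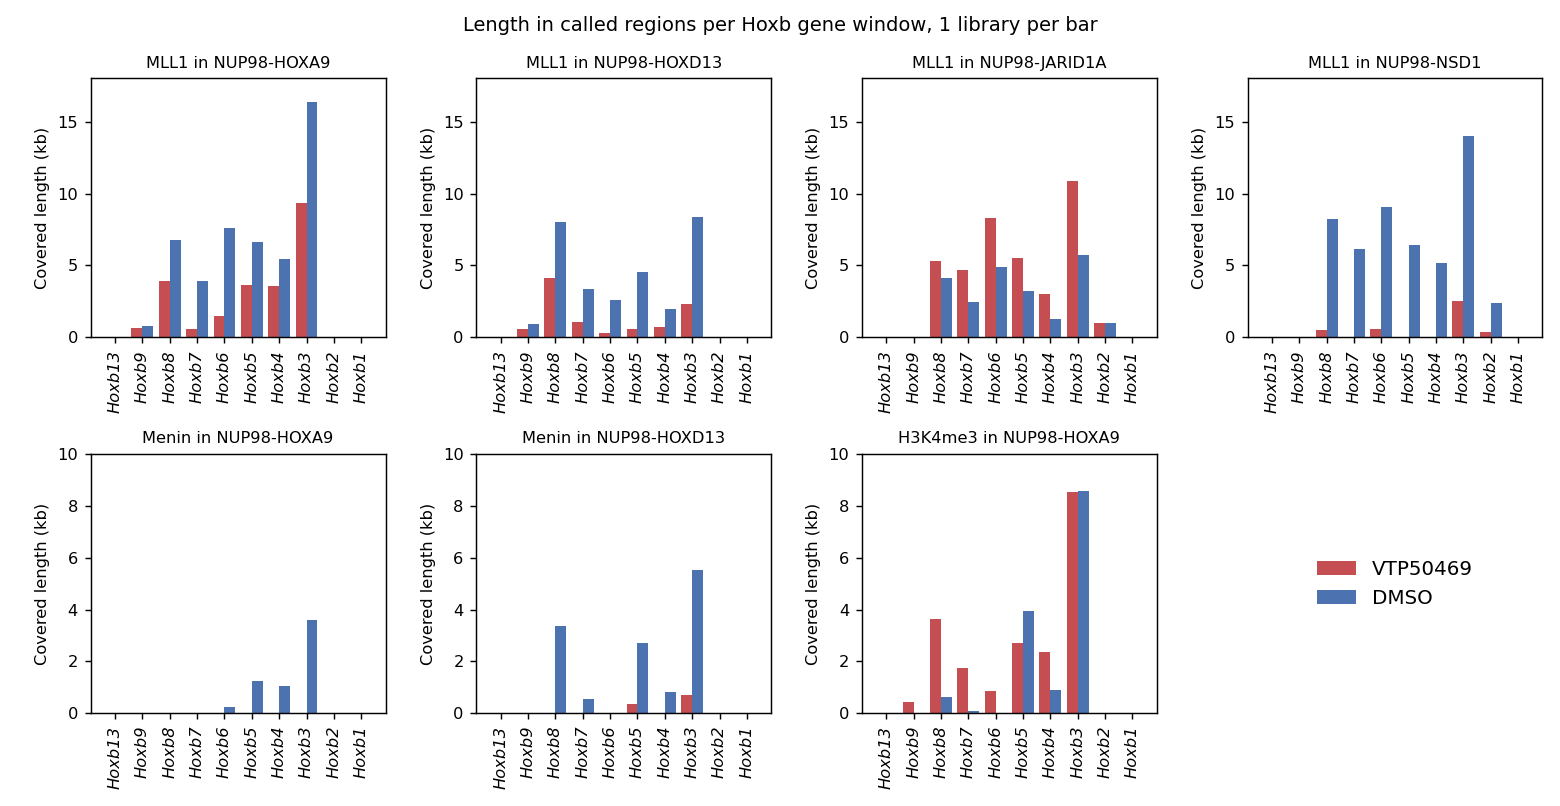
Covered length in kb per Hoxb gene window, with VTP50469 (red) left of DMSO (blue), 1 library per bar and 1 panel per pair. The vertical scale differs between the MLL1 panels and the Menin and H3K4me3 panels. Red bars are lower than blue in 3 MLL1 panels and both Menin panels, and higher in the panel of NUP98-JARID1A except at Hoxb2 (1015 and 1014 bp).

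Counts of shortened members stood above the share of all genes in the HOX fusion lines. In NUP98-HOXA9 the count rests on 2 adjacent genes, Hoxb6 and Hoxb7. A covered length after VTP50469 of at most 50% of DMSO was found for 2 of 7 members in NUP98-HOXA9, where 12.2% of all genes with a region in either list had one. In NUP98-HOXD13 it was 5 of 7 members against 30.0% of genes, and in NUP98-NSD1 7 of 7 against 91.6%, which is close to the background. In NUP98-JARID1A no member passed it, against 2.10% of genes, and 1 of 7 held at least 200% of DMSO (Hoxb4), against 32.5%. The median log2 ratio over the members, with 200 bp added to each length, was -0.79 in NUP98-HOXA9 against -0.10 over all such genes, and -1.50 against -0.45 in NUP98-HOXD13. NUP98-JARID1A had 0.74 against 0.42, and NUP98-NSD1 -3.61 against -1.84. On this scale a gene that lost all its length reads lower the longer it was in DMSO. The NUP98-NSD1 medians therefore do not show that the members lost a larger share. As lengths, the cluster held 10.6% of DMSO in NUP98-NSD1 and all genes 9.15%. Neighbouring members share regions, so these counts are not over independent genes.

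The other Hox clusters, with 11 Hoxa, 9 Hoxc and 9 Hoxd genes, gave other values in some lines. The Hoxa cluster held 62.1% of its DMSO length after VTP50469 in NUP98-HOXA9 and 27.4% in NUP98-HOXD13. In NUP98-NSD1 the Hoxa cluster held 35.7% where the Hoxb cluster held 10.6%, and in NUP98-JARID1A 102% where the Hoxb cluster held 160%. The Hoxc cluster held 57.6% in NUP98-HOXA9 and 42.9% in NUP98-HOXD13 and had no MLL1 region in the other lines. A length of at most 50% of DMSO was found for 2 of 7 covered Hoxa genes and 1 of 5 Hoxc genes in NUP98-HOXA9. In NUP98-HOXD13 it was 6 of 7 Hoxa and 5 of 6 Hoxc genes, so such counts were not particular to Hoxb. The Hoxd cluster had a single stretch of MLL1, 262 bp in NUP98-NSD1 cells with DMSO. MLL1 thus covered the Hoxa and Hoxb clusters in all 4 lines and the Hoxc cluster in the HOX fusion lines.

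**Figure D4:**
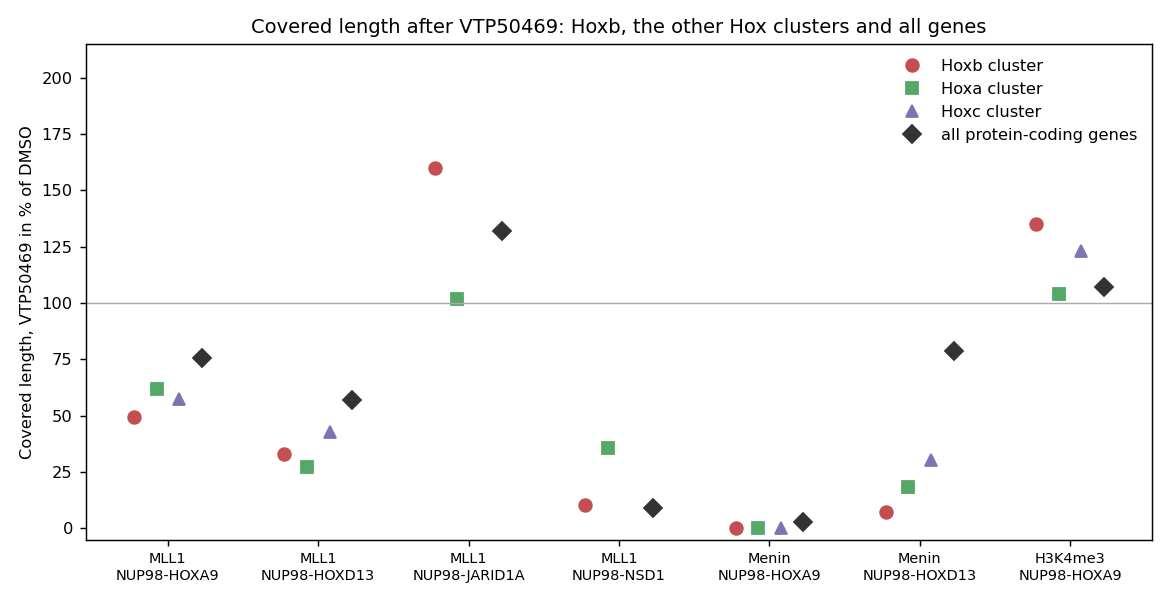
Covered length after VTP50469 in percent of DMSO for the Hoxb, Hoxa and Hoxc clusters and for all protein-coding genes, by pair, with a grey line at 100%. The Hoxb points lie at 160% for MLL1 in NUP98-JARID1A and 135% for H3K4me3 in NUP98-HOXA9 and below 50% in the other pairs. A cluster with no region in DMSO has no point.

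Genes flanking the cluster did not follow it in each line. Of 8 listed neighbours 6 were found in the annotation, Skap1, Snx11, Cbx1, Nfe2l1, Ttll6 and Calcoco2. Snx11, Cbx1 and Nfe2l1 gave most of the MLL1 length, and they lie well away from the locus, beyond Skap1 (96767546 to 96829968). Ttll6 and Calcoco2 had no MLL1 region in any list. The summed MLL1 length of the 6 genes was 4187 bp after VTP50469 against 4203 bp in DMSO in NUP98-HOXA9 (99.6%). It was 2308 against 3567 bp in NUP98-HOXD13 (64.7%) and 0 against 937 bp in NUP98-NSD1. In NUP98-JARID1A it was 4600 against 1956 bp (235%). The neighbours stood above the cluster in NUP98-HOXA9, NUP98-HOXD13 and NUP98-JARID1A, relative to DMSO. The 9 genes of HOX partner proteins of the MEIS, PBX and PKNOX families summed to 13961 bp after VTP50469 against 20211 bp in DMSO (69.1%) in NUP98-JARID1A. Among them Meis1, which binds DNA beside HOX proteins, had 3582 bp of MLL1 after VTP50469 against 13134 bp in DMSO in NUP98-JARID1A, the line in which the Hoxb cluster was longer.

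The MLL1 ground common to the 4 lines was small after VTP50469. Of 33269 bp of the windows that had MLL1 in any line after VTP50469, 1105 bp (3.32%) had it in all 4, and of 44234 bp in DMSO, 8273 bp (18.7%) had it in all 4. After VTP50469 nearly all of this common ground was 1 stretch of 1061 bp in Hoxb3 (96310694 to 96311754), with 44 bp more at Hoxb8. In DMSO the common ground fell into 13 stretches, the longest of them 2754 bp at Hoxb8 (96280756 to 96283509) and 1604 bp in Hoxb3 (96310375 to 96311978). The shortest line, NUP98-NSD1 after VTP50469 with 3908 bp and NUP98-JARID1A in DMSO with 17431 bp, bounds what the 4 lines can share.

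In DMSO the most ground in common to any pair of lines was 26521 bp, between NUP98-HOXA9 and NUP98-NSD1, which was 80.3% of the NUP98-HOXA9 length and 72.0% of the NUP98-NSD1 length. The HOX fusion lines had 18626 bp in common, 56.4% of the length in NUP98-HOXA9 and 90.6% of that in NUP98-HOXD13. NUP98-HOXD13 and NUP98-JARID1A had the least, 8640 bp, or 42.0% and 49.6% of their lengths. After VTP50469 all 3908 bp of NUP98-NSD1 lay in MLL1 regions of NUP98-JARID1A.

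In DMSO, Menin was called over fewer members than MLL1, 4 in NUP98-HOXA9 and 5 in NUP98-HOXD13 against 7 each, and it was called almost nowhere on the cluster after VTP50469. In NUP98-HOXA9 the cluster held 0 bp of Menin after VTP50469 and 3842 bp in DMSO, in 9 regions over Hoxb3, Hoxb4, Hoxb5 and the flank of Hoxb6. Hoxb3 held 3605 of these bases, which ranked it 3 of 7489 genes with Menin. The whole treated list was short, however, with 403 regions against 9050 in DMSO, and 98.7% of all genes with a Menin region in either list had at most 50% of the DMSO length, as did 4 of 4 covered members. The treated list thus gives no contrast between the cluster and other genes.

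In NUP98-HOXD13 the Menin lists were of similar length, with 16706 regions after VTP50469 and 18826 in DMSO. The value of the cluster lay far below that of all genes. It held 682 bp after VTP50469 against 9560 bp in DMSO (7.13%), while all genes held 78.6%, the Hoxa cluster 18.6% and the Hoxc cluster 30.6%. A length of at most 50% of DMSO was found for 5 of 5 covered members, against 13.2% of all genes with a Menin region. The median log2 ratio was -2.37 over the members and -0.20 over all such genes. The 6 neighbouring genes summed to 3352 against 3556 bp (94.3%).

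Among the members, Hoxb8 held 0 bp of Menin after VTP50469 against 3354 bp in DMSO in NUP98-HOXD13, Hoxb4 0 against 815 bp and Hoxb7 0 against 553 bp. Hoxb3 held 682 against 5536 bp and Hoxb5 364 against 2706 bp. Of the 682 bp, 364 bp lay between Hoxb5 and Hoxb3 (96306751 to 96307114), and 318 bp lay deep in Hoxb3 (96332220 to 96332537), where no DMSO list of any antibody had a region. Over the cluster, 218 bp were called in both Menin lists. The regions of the cluster were weak ones in their list. Their median fold in DMSO was 5.81, against 11.2 over the list, and the strongest, at Hoxb8 with a fold of 7.74, ranked 12576 of 18826. The part of this low enrichment in the loss was not tested.

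Most Menin ground in DMSO also carried MLL1. In DMSO all 3842 bp of Menin on the cluster in NUP98-HOXA9 were also in MLL1 regions, as were 96.0% of all Menin bases of that list. In NUP98-HOXD13 the share was 86.7% on the cluster and 79.9% over the list in DMSO. After VTP50469 it was 53.4% on the cluster, 364 of 682 bp, and 74.7% over the list. The Menin and MLL1 libraries of NUP98-HOXA9 were collected at 96 h and 72 h.

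H3K4me3, the mark that MLL1 can place, was longer on the cluster after VTP50469 in NUP98-HOXA9. It covered 14365 bp after VTP50469 and 10641 bp in DMSO (135%), where all genes stood at 107%, the Hoxa cluster at 104% and the Hoxc cluster at 123%. Of the DMSO bases 77.9% were called again, and 6078 bp were added. A length of at least 200% of DMSO was found for 5 of 7 covered members, against 10.3% of all genes with H3K4me3 in either list, and none had at most 50%, against 5.28%. The median log2 ratio was 1.69 over the members and 0.07 over all such genes. That median is the value of Hoxb9, with 447 bp after VTP50469 and 0 bp in DMSO. It rests on the 200 bp added and on 1 region with a −log10 q of 4.31, which also counts for Hoxb8. Members share regions, so neither the count nor the median is over independent genes.

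Most of the added H3K4me3 lay at Hoxb8, with 2999 bp, and at Hoxb4, with 1446 bp. Hoxb8 held 3619 bp after VTP50469 against 620 bp in DMSO. The 3619 bp were a region of 3172 bp (96282165 to 96285336), which took in the DMSO region of 620 bp, and one of 447 bp (96277426 to 96277872) in the ground shared with Hoxb9. Hoxb7 held 1733 against 94 bp, which are the ends of the Hoxb8 regions of 3172 bp and 620 bp, and its own span had 0 bp in both lists. Hoxb6 held 869 against 0 bp, Hoxb9 the same 447 bp against 0 bp, outside its gene span, and Hoxb4 2356 against 910 bp (259%, or 117% with 5 kb on either side). The Hoxb4 promoter had 223 bases with H3K4me3 after VTP50469 and 0 in DMSO.

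Hoxb3 and Hoxb5, the members with the most H3K4me3 in DMSO, were not longer with their flanks. Hoxb3 held 8535 bp after VTP50469 against 8572 bp in DMSO (99.6%), but 8175 against 6964 bp (117%) over its gene span alone. With flanks, no other protein-coding gene had a longer H3K4me3 length in either list. Hoxb5 held 2688 against 3927 bp (68.4%). The H3K4me3 regions of the cluster were wide but not high. After VTP50469 the widest had 4441 bp and ranked 14 of 9567, while the strongest had a fold of 7.54 and ranked 3594. Meis1 had 0 bp of H3K4me3 after VTP50469 and 587 bp in DMSO.

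The overlap of H3K4me3 and MLL1 on the cluster was a smaller share of the H3K4me3 bases and a larger share of the MLL1 bases after VTP50469. After VTP50469, 62.0% of the H3K4me3 bases lay in MLL1 regions of the same condition, against 97.5% in DMSO, while over the whole lists it was 36.5% after VTP50469 and 52.6% in DMSO. Of the MLL1 bases, 54.6% lay in H3K4me3 regions after VTP50469 and 31.4% in DMSO. Where MLL1 was called in both conditions, 55.5% of the bases had H3K4me3 after VTP50469 and 42.2% in DMSO. Where MLL1 was called in DMSO alone, on 16975 bp, the shares were 29.8% after VTP50469 and 21.2% in DMSO. Ground without an MLL1 call in either condition had 0.612% after VTP50469 and 0.408% in DMSO. H3K4me3 was thus not shorter on the bases that had no MLL1 call after VTP50469, within these lists, whose times differ (96 h for H3K4me3, 72 h for MLL1).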

How the data were processed

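Region lists of 14 ChIP-seq libraries were used as deposited. Per the submitters' processing notes, the build was mm10 and the tools included MACS2, bedtools, SAMtools, STAR 2.7.5a, Picard 2.9.4 and bcl2fastq 2.20.0.422. The sources used here give neither their settings nor the input that served as control of each list. By label, some conditions have no input of their own. NUP98-NSD1 has an input from cells with VTP50469 alone. NUP98-HOXA9 has an input from cells with DMSO alone at 72 h and from cells with VTP50469 alone at 96 h. Each deposited list gives regions of 1 library with the fold enrichment (a linear ratio), the −log10 p-value and −log10 q-value and an integer score from the authors' peak caller. The lowest −log10 q in a list lay between 2.00 and 2.07.

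Regions were joined to gene spans of the RefSeq table (GRCm38.p6) with 2 kb on either side, and covered bases were counted in Python 3.11.15 with pandas 2.3.3 and NumPy 2.4.6. Interval counting was checked on simulated regions. Bases shared by members were counted once for the cluster and once per member otherwise. Genes with a region in either list of a pair formed the background. Log2 ratios had 200 bp added to both lengths. All 10 members are named, other genes come from listed groups, and 5 more were named by likeness to the cluster. The members and lists were chosen with earlier results of these data known. With 1 library per condition no test was made, and read depth, and so the precision of a length, is unknown from the lists. Alternatives tried were equal list length, a −log10 q of at least 5, the gene span alone, a 5 kb flank, the whole locus, joining of regions within 500 bp, and leaving out Hoxb13.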

Additional observations from a re-analysis of the deposited data

Results flagged for a closer look

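The direction of MLL1 in NUP98-JARID1A was the opposite of that in the other lines, a difference that was not tested, with 1 library per condition. The cluster held 160% of its DMSO length after VTP50469 in NUP98-JARID1A and less than DMSO in NUP98-HOXA9, NUP98-HOXD13 and NUP98-NSD1. The same held, by more than 10% in each direction, for Hoxb8 (130%), Hoxb7 (190%), Hoxb6 (169%), Hoxb5 (171%), Hoxb4 (238%) and Hoxb3 (189%). These genes share regions and are not independent. The treated list of NUP98-JARID1A was also the longer of its pair, with 24950 regions against 15765 in DMSO, and with both lists limited to an equal number of regions the cluster stood at 115%. Under that limit Hoxb8 (89.1%) and Hoxb7 (91.4%) turned to below DMSO, and Hoxb6 stood at 105%, Hoxb5 at 171%, Hoxb4 at 231% and Hoxb3 at 169%.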

How the results depend on the processing

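For the cluster, 47 of 48 alternative values lay within 1.5 times the value reported. The exception was Menin in NUP98-HOXD13, at 3.81% of DMSO over gene spans alone and 7.13% with flanks, by construction because flank bases drop out. Many of the 48 values could not differ, so this count overstates how stable the results are. A 5 kb flank, the whole locus and leaving out Hoxb13 gave the same cluster lengths in every pair, since no region lay in the ground concerned. Menin in NUP98-HOXA9 was fixed at 0%, because its treated list has no region on the cluster. Menin in NUP98-HOXA9 gave no value at equal list length, since the strongest 403 DMSO regions hold none on the cluster. For single members, 171 of 200 values stayed within 1.5 times on the same side of 100%, 23 moved further, and 6 crossed 100%. With lists of equal length, MLL1 in NUP98-JARID1A crossed it at Hoxb8 (89.1%, against 130%), Hoxb7 (91.4%, against 190%) and Hoxb2 (0%, against 100%), while Hoxb6 stood at 105% and the cluster at 115%. Hoxb2 there, reported as 1015 against 1014 bp, also stood at 68.0% with a −log10 q of at least 5 and at 88.6% over the gene span. H3K4me3 at Hoxb3 stood at 117% over the gene span, against 99.6%. With a −log10 q of at least 5, Hoxb4 stood at 947% and Hoxb7 at 495% for MLL1 in NUP98-JARID1A, and with a 5 kb flank H3K4me3 at Hoxb4 stood at 117% in NUP98-HOXA9, against 259%. Where no cause is named, the cause was not tested. One library per condition and unknown depth limit every length given. No paired analysis was possible because each condition has 1 library.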

Other observations

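The protein-coding genes outside the locus whose MLL1, Menin and H3K4me3 lengths ran most like those of the Hoxb cluster over the 14 lists were Irf2 (Pearson r = 0.949), Sinhcaf (0.948), Tap2 (0.939), Zc3h7b (0.933) and Pik3c3 (0.931), of 5540 genes compared on log2(length + 200 bp). This is a description without a test, since the 14 points share cell lines, antibodies and list lengths, and the number of regions in a list itself had r = 0.680 with the cluster. Irf2, which encodes an interferon regulatory factor, had 4176 bp of MLL1 after VTP50469 against 8222 bp in DMSO in NUP98-HOXA9, and 6049 against 6117 bp in NUP98-JARID1A. Like the cluster it had no Menin region in NUP98-HOXA9 after VTP50469, against 1027 bp in DMSO. Unlike the cluster it was not longer in NUP98-JARID1A.

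The antisense RNA gene Hoxb5os, whose window overlaps Hoxb5 and Hoxb6, had 558 bp of MLL1 after VTP50469 against 14424 bp in DMSO in NUP98-NSD1 and 5072 against 13730 bp in NUP98-HOXA9. In NUP98-JARID1A it had 12245 against 6544 bp. Its regions are those of its neighbours, and the lists have no strand.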
